A study of Mus musculus with 30 samples.

Results

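The genes described here are 39 mouse genes of fatty acid oxidation and of the PPAR alpha program, chosen by name and with earlier results of these data known. They are the nuclear receptor gene Ppara, genes of fatty acid activation and the carnitine shuttle, the enzymes of mitochondrial and peroxisomal beta-oxidation, acyl-CoA thioesterases, the ketone body enzyme gene Bdh1 and further known targets of PPAR alpha. On the array 38 of the 39 had a probe under the chosen names, with 53 probes in all, and all 38 were among the 21071 genes tested. Hadh was printed on the array under an older name, was found through its RefSeq accession and is described apart from the counts.

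Liver RNA of 30 mice was hybridised to 30 one-colour Agilent arrays, 1 mouse per array. The D2 (DBA/2) and B6 (C57BL/6) inbred strains were each fed a diet with under 3 mg of iron per kg (deficient), 200 mg per kg (balanced) or 8.3 g per kg (enriched), with 5 mice in each of the 6 groups. The labels give each mouse its own animal code, and name neither an engineered allele nor a drug in any group. The labels used here name no sex, age, length of feeding or hour of sampling. Levels are log2 of the quantile-normalized spot intensity, differences are given on the log2 scale with the standard error (SE) of the limma fit, and a gene is called where its Benjamini-Hochberg adjusted p over all tested genes is below 0.05. In each group 9 of the 9 measured hepatocyte markers stood well above background in at least 3 mice. Tfrc, the transferrin receptor gene known to rise when cells lack iron, was at 2.51 (SE 0.128, adjusted p = 3.61e-13) for deficient minus balanced livers and at -1.48 (SE 0.128, adjusted p = 5.93e-08) for enriched minus balanced livers.

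Fatty acids are activated to acyl-CoA, carried into mitochondria on carnitine and shortened in a cycle of dehydrogenation, hydration, dehydrogenation and thiolysis. Peroxisomes run a parallel cycle on very long and branched chains, and liver mitochondria turn the acetyl-CoA into ketone bodies for other tissues. PPAR alpha is a nuclear receptor that binds fatty acids, pairs with RXR and raises most of these genes during fasting.

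PPAR alpha and RXR are known to bind a direct repeat with 1 spacer base, so the RefSeq promoter windows (assembly GRCm38.p6, 250 bases before to 50 bases after a gene's start) were searched on both strands for AGGTCA followed by any 1 base and AGGTCA again. Of the 39 genes, 32 had a window, Hadh included. With up to 2 mismatches over the 12 fixed letters the motif was found for 5 of 32 genes (15.6%), against 4.40% of the 27025 genes in the table. It was found for 2 of the 14 counted genes with a window that were higher on the deficient diet (14.3%). Of the other 18 it was found for 3 (16.7%). With up to 3 mismatches it was found for 11 of 32 genes (34.4%), against 27.3% of all genes. It was then found for 3 of the 14 higher genes (21.4%) and 8 of the other 18 (44.4%). Hadh, described apart from the counts, is placed among the other 18 although it was also higher on the deficient diet. It is 1 of the 8, with 3 mismatches, so this split does not cleanly part higher genes from the rest. The matched stretches are shown because they are the letters in this window closest to the receptor's element, with the matched 13 bases in capitals, read 5′ to 3′ on the strand of the gene, and with only the match itself where it lies inside the transcript.
Fabp1, chr6:71199787-71199849, plus strand: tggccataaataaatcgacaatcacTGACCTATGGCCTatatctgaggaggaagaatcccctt
Acot4, chr12:84038341-84038378, plus strand: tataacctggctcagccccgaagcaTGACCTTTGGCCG
Echs1, chr7:140116467-140116529, minus strand: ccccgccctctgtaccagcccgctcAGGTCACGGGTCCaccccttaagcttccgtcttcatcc
Etfa, chr9:55512283-55512345, minus strand: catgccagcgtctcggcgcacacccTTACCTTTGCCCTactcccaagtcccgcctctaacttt
Slc25a20, chr9:108662142-108662154, plus strand: AGGTGAAAGGTCG
The Fabp1 match had 1 mismatch and began 67 bases before the start, and 0.644% of all genes had a match with at most 1 mismatch. Acot4 and Slc25a20 were higher on the deficient diet, while Fabp1, Echs1 and Etfa were not called in that comparison. A match describes letters in a window and was not tested as a binding site.

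The comparison of deficient with balanced livers asked which of these genes move when iron is scarce. Averaged over the strains, 15 of the 38 genes were higher on the deficient diet and 0 were lower, while 3.89% of all tested genes were called higher and 4.2% lower. At an unadjusted p below 0.05, 25 of the 38 genes passed, against 4453 of the 21071 tested genes. The median difference of the 38 genes was 0.19, against 0.00 over all tested genes, and 35 of the 38 differences were positive. The higher genes came from the carnitine shuttle, both beta-oxidation systems, the thioesterases and the secreted and regulatory targets Fgf21 and Pdk4. In bulk liver, fewer cells of a type and less RNA per cell cannot be told apart.

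Ppara encodes the receptor itself. Ppara in D2 mice measured 14.15, 14.21, 14.66, 14.38 and 14.51 on the deficient diet, 14.33, 14.40, 14.31, 14.36 and 14.53 on the balanced diet and 14.26, 14.51, 14.56, 14.34 and 14.40 on the enriched diet. Ppara levels in B6 mice were 13.18, 13.53, 12.94, 13.29 and 13.47 on the deficient diet, 13.02, 12.93, 12.98, 12.92 and 13.02 on the balanced diet and 12.66, 12.86, 12.76, 12.85 and 12.86 on the enriched diet. D2 values overlapped across the diets, and so did deficient and balanced B6 values, while all enriched B6 mice lay below all balanced B6 mice. Its difference of deficient minus balanced livers was 0.15 (SE 0.0683, adjusted p = 0.188), and its largest separation lay between the strains. Acsl1, which activates long-chain fatty acids, was at 0.03 (SE 0.0439, adjusted p = 0.727). Its dimmer probes gave 0.22 (adjusted p = 0.112) and 0.17 (adjusted p = 0.232), also not called. Cpt1a encodes the carnitine palmitoyltransferase that sets the rate of fatty acid entry into mitochondria. Cpt1a in D2 mice measured 16.08, 16.21, 16.02, 16.13 and 16.17 on the deficient diet, 15.64, 15.91, 15.87, 15.61 and 15.49 on the balanced diet and 15.83, 15.84, 15.78, 15.74 and 15.92 on the enriched diet. Cpt1a levels in B6 mice were 16.04, 15.84, 15.83, 16.20 and 15.97 on the deficient diet, 16.14, 15.96, 15.76, 15.85 and 15.57 on the balanced diet and 15.23, 15.55, 15.37, 15.73 and 15.88 on the enriched diet. In D2 all deficient mice lay above all balanced mice, while the B6 groups overlapped. Cpt1a was higher on the deficient diet by 0.27 (SE 0.0783, adjusted p = 0.0322), a 1.2-fold difference, with 8 of 10 deficient mice above the balanced mean of their strain. The Cpt1a call held in 21 of 30 fits with 1 array left out and was lost with slide as a block (0.22, adjusted p = 0.0844), while its other probe gave 0.41 (adjusted p = 0.00815). Slc25a20, the carnitine-acylcarnitine carrier of the inner membrane, was higher by 0.27 (adjusted p = 0.0115), and Crat, which attaches acetyl groups to carnitine, by 0.65 (adjusted p = 0.00229). Cpt2, which returns the acyl group to CoA inside mitochondria, was at 0.07 (adjusted p = 0.51).

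In the mitochondrial spiral 3 of the 10 measured genes were higher and the median difference was 0.15. Acadl, the long-chain acyl-CoA dehydrogenase, had no value for B6 enriched mouse 1, where its spot carried an outlier mark. Acadl in D2 mice measured 14.52, 14.51, 14.44, 14.34 and 14.40 on the deficient diet, 13.99, 14.01, 14.22, 13.94 and 13.63 on the balanced diet and 14.20, 14.19, 14.10, 14.02 and 14.17 on the enriched diet. Acadl levels in B6 mice were 14.40, 14.28, 14.33, 14.45 and 14.36 on the deficient diet, 14.07, 14.27, 13.90, 14.06 and 14.01 on the balanced diet and 13.98, 14.08, 14.07 and 14.27 on the enriched diet. Every deficient mouse lay above every balanced mouse of its strain, although in B6 the closest values were 14.28 and 14.27. Acadl was higher by 0.39 (SE 0.0587, adjusted p = 0.000149), a 1.31-fold difference. Eci1, an isomerase that prepares unsaturated chains, was higher by 0.26 (adjusted p = 0.00315) and Hadhb, the thiolase subunit of the trifunctional protein, by 0.24 (adjusted p = 0.0107). Its partner subunit Hadha missed the threshold at 0.19 (adjusted p = 0.0591), as did the medium-chain dehydrogenase Acadm at 0.19 (adjusted p = 0.0576). The remaining genes lay close to 0, with the very-long-chain dehydrogenase Acadvl at 0.10, the short-chain dehydrogenase Acads at -0.05, the hydratase Echs1 at -0.03, the thiolase Acaa2 at -0.02 and the dienoyl-CoA reductase Decr1 at 0.05. Hadh, the mitochondrial 3-hydroxyacyl-CoA dehydrogenase that stands outside the counts, was higher by 0.18 (adjusted p = 0.0432). The 3 genes that pass electrons from these dehydrogenases to the respiratory chain were not called, with Etfa at 0.03, Etfb at 0.08 and Etfdh at 0.12; a second Etfdh probe gave 0.29 (adjusted p = 0.0399). The Etfa value rests on 4 of 5 D2 balanced mice.

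Among the 9 peroxisomal genes 4 were higher, and all 9 differences were positive with a median of 0.20. Ehhadh, the peroxisomal enzyme that joins hydratase and dehydrogenase activity, had the largest of them. Ehhadh in D2 mice measured 17.01, 17.02, 16.97, 17.02 and 16.71 on the deficient diet, 15.68, 16.07, 15.97, 15.53 and 15.91 on the balanced diet and 16.38, 16.24, 16.44, 16.17 and 15.98 on the enriched diet. Ehhadh levels in B6 mice were 16.79, 16.27, 17.17, 16.56 and 16.48 on the deficient diet, 15.95, 16.62, 16.49, 15.57 and 16.02 on the balanced diet and 15.76, 15.98, 16.18, 15.95 and 16.84 on the enriched diet. In D2 the deficient mice stood clear of the balanced mice, and in B6 the groups overlapped. Ehhadh was higher by 0.82 (SE 0.134, adjusted p = 0.000367), a 1.76-fold difference, in 10 of 10 deficient mice against the balanced mean of their strain. Decr2, the peroxisomal dienoyl-CoA reductase, was higher by 0.24 (adjusted p = 0.0238), the acyl-CoA importer Abcd3 by 0.18 (adjusted p = 0.0214) and the thiolase Acaa1a by 0.15 (adjusted p = 0.047). The Acaa1a call sits at the threshold: with each of the 30 arrays left out in turn it held in 7 fits, and its 2 further probes gave 0.36 (adjusted p = 0.0135) and 0.29 (adjusted p = 0.0598). The 2 further Abcd3 probes gave 0.36 (adjusted p = 0.00146) and 0.38 (adjusted p = 0.00418). With slide as a block 3 of the 4 peroxisomal calls were lost, at adjusted p of 0.0516 for Decr2, 0.0645 for Abcd3 and 0.242 for Acaa1a, whose difference was then 0.08. The near-identical paralog Acaa1b was at 0.25, the isomerase Eci2 at 0.20, the multifunctional enzyme Hsd17b4 at 0.11, the importer Abcd2 at 0.14 and the peroxisome proliferation gene Pex11a at 0.25, none of them called.

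The thioesterases release free fatty acids from acyl-CoA and had the largest median of any class, 0.79 over 4 genes. Acot2, the mitochondrial form, was higher by 0.89 (SE 0.178, adjusted p = 0.0023), the cytosolic form Acot1 by 0.69 (SE 0.164, adjusted p = 0.00872) and the peroxisomal form Acot4 by 0.58 (SE 0.137, adjusted p = 0.00812). The Acot1 value rests on 4 of 5 B6 balanced mice, because the spot of the other mouse carried an outlier mark. Acot3 had a difference of 1.03 (SE 0.329, adjusted p = 0.0522) and was not called. These genes are close paralogs of 1 cluster, and how far each probe also binds the transcripts of the others is unknown here, which leaves the value of each uncertain.

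Bdh1, which reduces acetoacetate to beta-hydroxybutyrate, is the ketone body enzyme of the set. Bdh1 in D2 mice measured 16.31, 16.47, 16.46, 16.37 and 16.32 on the deficient diet, 16.17, 16.15, 16.31, 16.00 and 16.05 on the balanced diet and 16.02, 16.11, 16.38, 16.49 and 16.41 on the enriched diet. Bdh1 levels in B6 mice were 15.86, 15.84, 16.08, 15.79 and 15.95 on the deficient diet, 15.60, 16.10, 15.75, 15.07 and 15.43 on the balanced diet and 15.19, 15.50, 14.92, 14.74 and 15.36 on the enriched diet. The lowest deficient D2 mice reached the highest balanced one, and the B6 groups overlapped widely. Its difference was 0.28 (SE 0.102, adjusted p = 0.0901), and the other Bdh1 probe gave 0.30. Of 7 further genes of ketone body synthesis and export, 2 were higher, Slc16a1, a monocarboxylate carrier, by 0.55 (adjusted p = 0.0218) and the thiolase Acat1 by 0.14 (adjusted p = 0.0489). Bdh2, a cytosolic dehydrogenase, was lower at -0.74 (adjusted p = 0.00104).

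Pdk4, the kinase that switches off pyruvate dehydrogenase and so spares glucose, had the smallest adjusted p of the set. Pdk4 in D2 mice measured 10.41, 10.16, 9.92, 9.49 and 9.77 on the deficient diet, 8.58, 9.07, 8.55, 8.64 and 8.57 on the balanced diet and 8.50, 8.99, 8.86, 8.60 and 8.56 on the enriched diet. Pdk4 levels in B6 mice were 11.95, 12.27, 12.65, 12.02 and 12.22 on the deficient diet, 10.63, 10.57, 11.46, 10.10 and 10.71 on the balanced diet and 11.07, 12.18, 11.96, 11.73 and 13.12 on the enriched diet. In both strains all deficient mice lay above all balanced mice. Pdk4 was higher on the deficient diet by 1.40 (SE 0.185, adjusted p = 2.81e-05), a 2.64-fold difference. Fgf21 encodes a hormone that liver secretes in fasting. Fgf21 in D2 mice measured 14.31, 14.67, 13.77, 13.81 and 14.31 on the deficient diet, 12.78, 12.84, 13.14, 12.33 and 13.73 on the balanced diet and 13.19, 13.22, 13.10, 13.41 and 13.16 on the enriched diet. Fgf21 levels in B6 mice were 12.71, 12.55, 13.09, 13.33 and 12.46 on the deficient diet, 12.18, 11.91, 11.43, 10.92 and 12.47 on the balanced diet and 9.66, 12.26, 12.29, 11.65 and 13.36 on the enriched diet. Deficient and balanced D2 mice did not overlap, at 13.77 against 13.73 for the closest pair, and B6 mice overlapped narrowly, at 12.46 in the lowest deficient and 12.47 in the highest balanced mouse. Fgf21 was higher by 1.13 (SE 0.294, adjusted p = 0.0163), a 2.19-fold difference, and the call was lost with slide as a block (0.92, adjusted p = 0.116). The pantetheinase Vnn1 was at 0.17, the lipoprotein lipase inhibitor Angptl4 at 0.03 and the fatty acid binding protein Fabp1 at 0.02, none of them called.

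**Figure D1:**
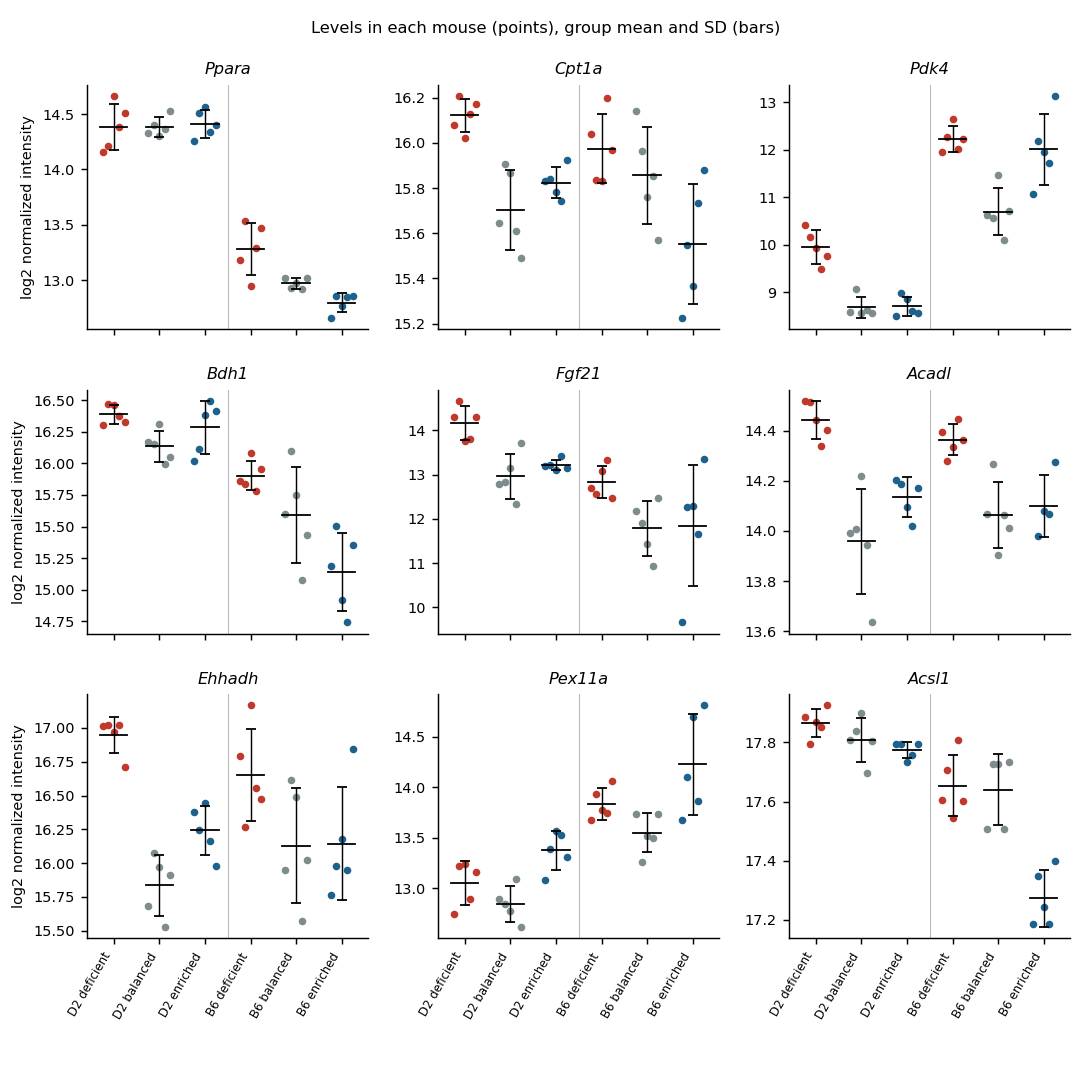
Log2 normalized intensity of 9 genes in each of the 30 mice (points), with the group mean and SD as bars, for the deficient, balanced and enriched diets in D2 and then B6 livers. Deficient Pdk4 and Acadl values lie above the balanced values in both strains, Ppara parts the strains on all 3 diets, and enriched Acsl1 values lie below the balanced ones in B6.

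**Figure D2:**
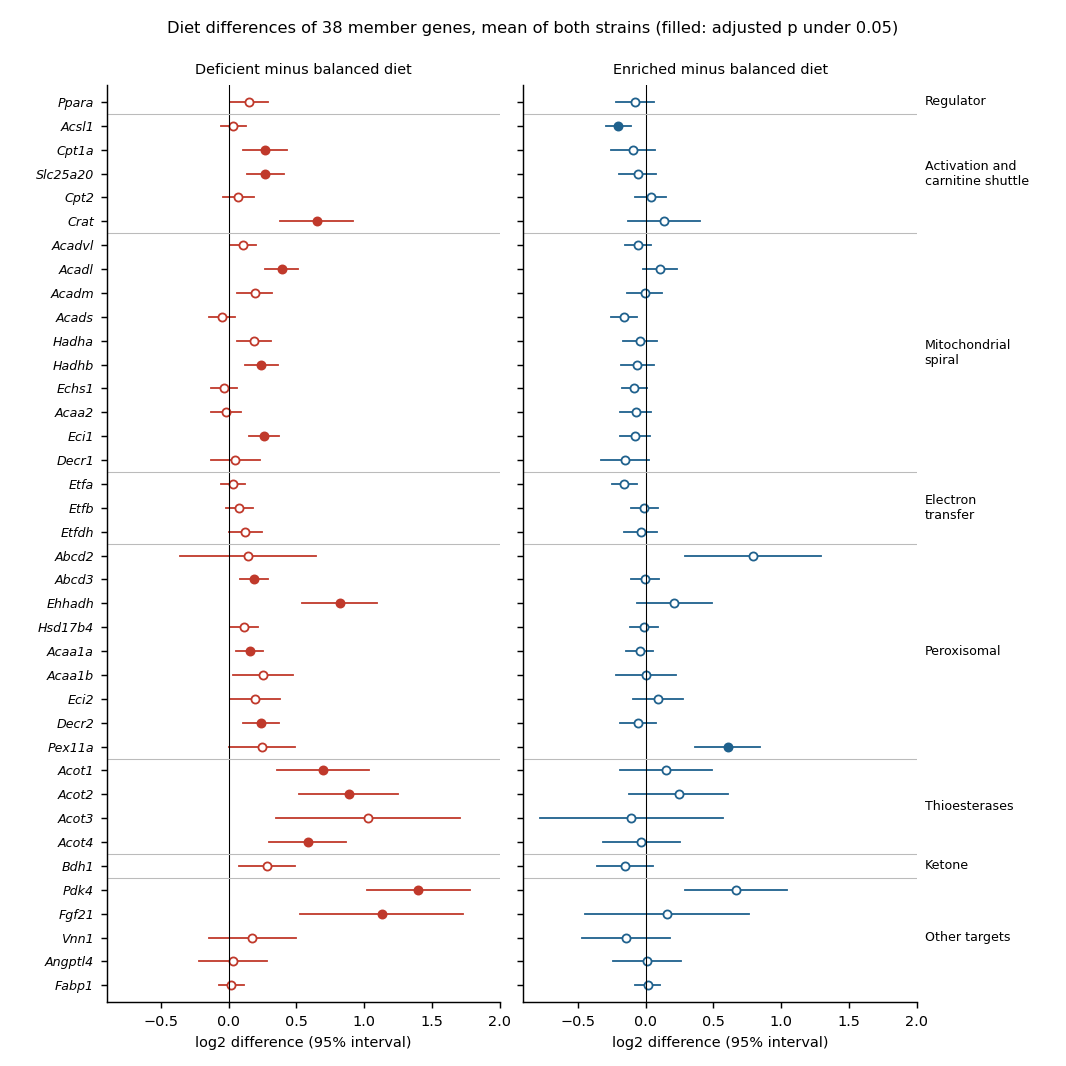
Log2 difference with its 95% interval for the 38 genes by role, deficient minus balanced livers on the left and enriched minus balanced livers on the right, averaged over both strains; filled circles are called. Filled circles number 15 on the left, all above 0, and 2 on the right, Pex11a above and Acsl1 below 0.

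By place in the cell, 8 of 20 mitochondrial genes were higher with a median difference of 0.19, and 5 of 11 peroxisomal genes with a median of 0.24, the thioesterases included. Other pathway lists moved in both directions. Of 23 further peroxisomal genes 2 were higher, among them the peroxisome assembly gene Pex3 by 0.22 (adjusted p = 0.0122), and 3 were lower, among them Pecr at -0.28 (adjusted p = 0.00145) and Slc25a17, a peroxisomal carrier, at -0.21 (adjusted p = 0.00361). Of 21 further genes listed with mitochondrial fatty acid oxidation 4 were higher, led by the acyl-CoA synthetase Acsl3 at 0.84 (adjusted p = 0.00164), and 2 were lower. That list goes by pathway, and Acsl3 stands on it as a gene of fatty acid activation, not by its place in the cell. Of 15 genes of uptake and omega oxidation 3 were higher, including the omega hydroxylase Cyp4a10 at 0.44 (adjusted p = 0.00121), and 1 was lower. Of 12 lipolysis and lipid droplet genes 3 were higher, Cidec by 1.53 (adjusted p = 0.00388), the droplet coat gene Plin2 by 0.60 (adjusted p = 0.00142) and Fitm2 by 0.32 (adjusted p = 0.00278), and 1 was lower. Of 22 receptors and cofactors 0 were higher and 1, Esrra, was lower at -0.19 (adjusted p = 0.0459).

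Within strains, 9 of 38 genes were higher in deficient D2 livers, where 1.78% of all genes were called higher, and 2 of 38 in deficient B6 livers, where 1.11% were. The D2 genes were Ehhadh at 1.11 (adjusted p = 0.0013), Acadl at 0.48, Pdk4 at 1.27, Eci1, Hadhb, Crat, Cpt1a, Slc25a20 and Hadha. The Hadha call held in 11 of 30 fits with 1 array left out and was lost with slide as a block (adjusted p = 0.0518). Further probes of 3 genes outside these 9 also passed in D2: Abcd3 at 0.45 and 0.53 (adjusted p = 0.00857 and 0.00905), Acaa1a at 0.54 and 0.46 (adjusted p = 0.0159 and 0.0465) and Etfdh at 0.47 (adjusted p = 0.0253). The B6 genes were Pdk4 at 1.53 (adjusted p = 0.00218) and Acot2 at 0.97 (adjusted p = 0.0412). The Acot2 call was lost with slide as a block (adjusted p = 0.136) and with scan day as a block (adjusted p = 0.0588). The median difference of the 38 genes was 0.20 in D2 and 0.17 in B6 livers. The difference of the deficiency effect between strains (D2 minus B6) was called by limma for 0 of 38 genes and for 0.019% of all genes. An unadjusted p below 0.05 was reached by 2 of the 38 and by 1500 of the 21071 tested genes. The share of the 38 was thus no larger than the background. The 2 were Ppara at -0.31 (95% interval -0.59 to -0.03) and Ehhadh at 0.59 (0.04 to 1.14).

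The groups were divided unequally over 3 scan days, so each comparison was also made within a day. Within scan day 2 the median difference of deficient minus balanced livers over the 38 genes was 0.17. Within scan day 3 the median was 0.25. With slide as a block over all days, 11 genes were called, and the share of all genes called in that fit is not given here. Cpt1a, Fgf21, Decr2, Abcd3 and Acaa1a were no longer among the 11 and Acot3 was added (1.10, adjusted p = 0.03). The within-day fits rest on few mice: day 2 held 1 balanced B6, 1 enriched B6 and 1 enriched D2 mouse, and day 3 held 1 balanced D2 mouse, each lone mouse being assumed to vary like the other groups. Scan day 1 held no deficient B6 mouse. With scan day as a block over all days, each gene called without a block stayed called, the highest adjusted p being 0.0386 for Acaa1a. Pdk4 was at 1.28 within day 2 and 1.62 within day 3, and Ehhadh at 0.87 and 0.77 on those days. Markers of the clock also differed between these groups: of 17 clock genes 1 was higher and 3 were lower on the deficient diet, with Arntl at 0.84 (adjusted p = 0.0283) and Dbp at -0.88 (adjusted p = 0.0335). Of 6 tested adipocyte markers 1 was called, Fabp4 at 0.87 (adjusted p = 7.16e-08). Fabp4 was also the only 1 of the 6 with a positive difference, and their median was -0.26 and their lowest -1.13. Summed on the linear scale, where bright genes weigh most, the 8 listed ran from 5727 to 6991 in D2 deficient and 3317 to 5276 in D2 balanced livers. In B6 they ran from 7339 to 9354 in deficient and 3439 to 7132 in balanced livers. Lep was well above background on no array. Of 9 endothelial markers 3 were higher and 1 was lower, of 9 stellate cell and fibroblast markers 2 were higher, and 1 erythroid and 1 skeletal muscle marker were lower. Of the hepatocyte, Kupffer cell, cholangiocyte and lymphocyte markers 0 were called by limma, and at an unadjusted p below 0.05 1 of 9, 0 of 11, 2 of 6 and 0 of 11 of them passed in that order. Apart from the block and within-day fits, the part of scan day in the result was not tested, and neither was that of the clock or of other cell types.

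The comparison of enriched with balanced livers asked what iron loading does to the same genes. Averaged over the strains, 1 of 38 genes was higher and 1 was lower, against 1.21% and 1.01% of all tested genes, so both shares were near the background. At an unadjusted p below 0.05, 6 of the 38 passed, a share similar to the 2909 of all 21071 tested genes. The median difference was -0.03, with 14 of 38 positive. Pex11a, which drives division of peroxisomes, was the higher gene. Pex11a in D2 mice measured 12.75, 13.22, 13.23, 12.89 and 13.16 on the deficient diet, 12.90, 12.84, 12.77, 13.09 and 12.61 on the balanced diet and 13.08, 13.39, 13.57, 13.52 and 13.30 on the enriched diet. Pex11a levels in B6 mice were 13.67, 13.93, 13.77, 13.74 and 14.06 on the deficient diet, 13.73, 13.26, 13.52, 13.50 and 13.74 on the balanced diet and 13.67, 14.10, 14.69, 13.87 and 14.81 on the enriched diet. Enriched and balanced mice overlapped slightly in both strains, at 13.08 against 13.09 in D2, and the B6 enriched mice were the most spread. Pex11a was higher on the enriched diet by 0.60 (SE 0.117, adjusted p = 0.00381), a 1.52-fold difference, in 10 of 10 enriched mice against the balanced mean of their strain.

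Acsl1 was the lower gene. Acsl1 in D2 mice measured 17.89, 17.79, 17.87, 17.85 and 17.92 on the deficient diet, 17.81, 17.84, 17.90, 17.69 and 17.80 on the balanced diet and 17.79, 17.79, 17.73, 17.76 and 17.79 on the enriched diet. Acsl1 levels in B6 mice were 17.60, 17.71, 17.55, 17.81 and 17.60 on the deficient diet, 17.51, 17.73, 17.73, 17.51 and 17.73 on the balanced diet and 17.19, 17.35, 17.24, 17.19 and 17.40 on the enriched diet. In B6 all enriched mice lay below all balanced mice, and in D2 the enriched values fell inside the balanced range. Acsl1 was lower on the enriched diet at -0.20 (SE 0.0439, adjusted p = 0.0104), a ratio of 0.87, and with slide as a block it was at -0.21 (adjusted p = 0.0634) and no longer called. The 2 further Acsl1 probes gave larger differences, -0.47 and -0.46, with adjusted p of 0.00126 and 0.0024. The next genes by adjusted p included Pdk4 at 0.67 (adjusted p = 0.0535), Etfa at -0.16 (adjusted p = 0.0627), with 4 of 5 balanced D2 mice, and the importer Abcd2 at 0.79 (adjusted p = 0.0875).

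In enriched B6 livers 2 of 38 genes were higher, Pdk4 at 1.32 (adjusted p = 0.00215) and Pex11a at 0.68 (adjusted p = 0.0124), against 3.31% of all genes, and Acsl1 was lower at -0.37 (adjusted p = 0.000422), against 2.52%. The 2 further Acsl1 probes gave -0.84 and -0.82 in B6 (adjusted p = 5.53e-05 and 4.89e-05), and the second Bdh1 probe was lower there at -0.60 (adjusted p = 0.0198) while the brighter one gave -0.45 (adjusted p = 0.0618). In enriched D2 livers 0 of 38 genes were called and 4 passed an unadjusted p below 0.05. Of all 21071 tested genes 0.0902% were called and 1158 passed unadjusted. The difference of the enrichment effect between strains (D2 minus B6) was called by limma for 0 of 38 genes and 1.11% of all genes. An unadjusted p below 0.05 was reached by 6 of the 38, against 2471 of the 21071 tested genes. The smallest adjusted p was that of Acsl1, 0.33 (adjusted p = 0.061), with a 95% interval of 0.15 to 0.51. Its 2 further probes passed, at 0.76 (adjusted p = 0.0261) and 0.70 (adjusted p = 0.0339), so the call on Acsl1 depends on the probe. Pdk4 followed at -1.30 (adjusted p = 0.087), with an interval of -2.06 to -0.54. Without B6 enriched mouse 1, the array on which 22 of 37 genes were lowest of their group, 4 instead of 2 genes were called on the averaged comparison. Within scan days 2 and 3 Pex11a was at 0.55 and 0.69 and Acsl1 at -0.14 and -0.21.

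The deficient and enriched diets were also compared with each other. This comparison leaves out the balanced mice but shares its deficient mice with the comparison of deficient and balanced livers. In it 23 of 38 genes were higher on the deficient diet and 0 were lower, against 4.16% and 4.68% of all tested genes. Of the 38, 30 passed an unadjusted p below 0.05, against 4240 of the 21071 tested genes. The median difference was 0.23, and 36 of 38 were positive. By place in the cell, 13 of 20 mitochondrial genes and 6 of 11 peroxisomal genes were called. All 4 thioesterases were called too, of which Acot2, Acot3 and Acot4 are already counted by place.

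In the mitochondria Eci1 was higher by 0.34 (adjusted p = 0.000128), Hadhb by 0.30 (adjusted p = 0.00122), Slc25a20 by 0.33 (adjusted p = 0.0019), Cpt1a by 0.36 (adjusted p = 0.0034) and Acadl by 0.29 (adjusted p = 0.00292), with 4 of 5 enriched B6 mice behind the last. Bdh1 was higher by 0.43 (adjusted p = 0.00639), with Bdh1 at 16.39 ± 0.08 in D2 deficient and 16.28 ± 0.21 in D2 enriched livers, and 15.90 ± 0.12 in B6 deficient and 15.14 ± 0.31 in B6 enriched livers (SD, n = 5 each). Of the further ketone body genes 4 of 7 were higher, among them Acat1 by 0.32 (adjusted p = 2.02e-05) and the carriers Slc16a1 by 0.57 (adjusted p = 0.015) and Slc16a6 by 0.84 (adjusted p = 0.00133), and 1 was lower. Ppara itself was higher by 0.23 (adjusted p = 0.0339), in 7 of 10 deficient mice against the enriched mean of their strain. Its mean was 14.38 ± 0.21 in D2 deficient and 14.41 ± 0.12 in D2 enriched livers, and 13.28 ± 0.24 in B6 deficient and 12.80 ± 0.09 in B6 enriched livers (SD, n = 5 each). The Ppara call was lost with slide as a block (adjusted p = 0.146) and with scan day as a block (adjusted p = 0.0502), and held in 19 of 30 fits with 1 array left out.

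In the peroxisomes Ehhadh was higher by 0.61 (adjusted p = 0.00402), Decr2 by 0.29 (adjusted p = 0.00448), Acaa1a by 0.20 (adjusted p = 0.0097) and Abcd3 by 0.19 (adjusted p = 0.0186). Pex11a at -0.36 (adjusted p = 0.056) and Abcd2 at -0.65 (adjusted p = 0.103) had the opposite sign without being called, although the second Abcd2 probe gave -1.09 (adjusted p = 0.0169). Acsl1 was higher by 0.24 (adjusted p = 0.000777) and Pdk4 by 0.73 (adjusted p = 0.011). Pdk4 was at 9.95 ± 0.35 in D2 deficient and 8.70 ± 0.21 in D2 enriched livers (SD, n = 5 each). In B6 it was at 12.22 ± 0.28 in deficient and 12.01 ± 0.75 in enriched livers (SD, n = 5 each). The enriched B6 values, 11.07 to 13.12, spanned the deficient ones. In this comparison 0 of 17 clock genes were called by limma, with 1 at an unadjusted p below 0.05, 1 of 6 adipocyte markers was higher, and of 9 endothelial markers 2 were higher and 3 lower. With slide as a block 13 genes were called, and the share of all genes called in that fit is not given here. Those lost were Ppara, Abcd3 (adjusted p = 0.205), Acaa1a (adjusted p = 0.0642), Pdk4 (adjusted p = 0.054), Acadm, Hadha, Crat, Acot1, Acot2 and Fgf21. Within scan days 2 and 3 the median differences over the set were 0.19 and 0.22.

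To set the mitochondrial, peroxisomal and ketogenic steps beside each other over the 6 groups, each gene's level was taken as the log2 deviation from its mean over the 6 groups and averaged over a class in each mouse. For the 10 genes of the mitochondrial spiral the deviations on the deficient, balanced and enriched diets were 0.16 ± 0.032, -0.0020 ± 0.098 and 0.01 ± 0.061 in D2 and 0.06 ± 0.074, -0.05 ± 0.077 and -0.18 ± 0.083 in B6 livers (SD, n = 5 each). The enriched B6 livers were the lowest of the 6 groups and the deficient D2 livers the highest. For the 9 peroxisomal genes the deviations were 0.03 ± 0.11, -0.24 ± 0.086 and -0.07 ± 0.085 in D2 and 0.20 ± 0.11, -0.05 ± 0.19 and 0.13 ± 0.15 in B6 livers. Here the balanced D2 livers were the lowest, and on each diet the B6 mean lay above the D2 mean. Single genes did not all follow this mean. Averaged over the diets, D2 minus B6 was 0.31 for Acaa1a and 0.26 for Acaa1b. Pex11a at -0.78 and Abcd2 at -0.73 had the largest negative differences of the class. For Bdh1 they were 0.48 ± 0.077, 0.23 ± 0.12 and 0.38 ± 0.21 in D2 and -0.0039 ± 0.12, -0.32 ± 0.38 and -0.77 ± 0.31 in B6 livers, with every D2 group mean above every B6 group mean. Enriched B6 livers stood below balanced B6 livers for the spiral and for Bdh1 and above them for the peroxisomal genes, with overlapping mice in each class; these class values carry no test. The higher peroxisomal value of enriched B6 livers rests on 2 genes, Abcd2 at 1.12 and Pex11a at 0.68 against balanced B6 livers, while the other 7 lay between -0.13 and 0.20. Counted by gene, the deficient mean was the highest of the 3 diets for 29 of 38 genes in D2 and 34 of 38 in B6. The same count was not made over all tested genes, so no background share stands beside these numbers.

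**Figure D3:**
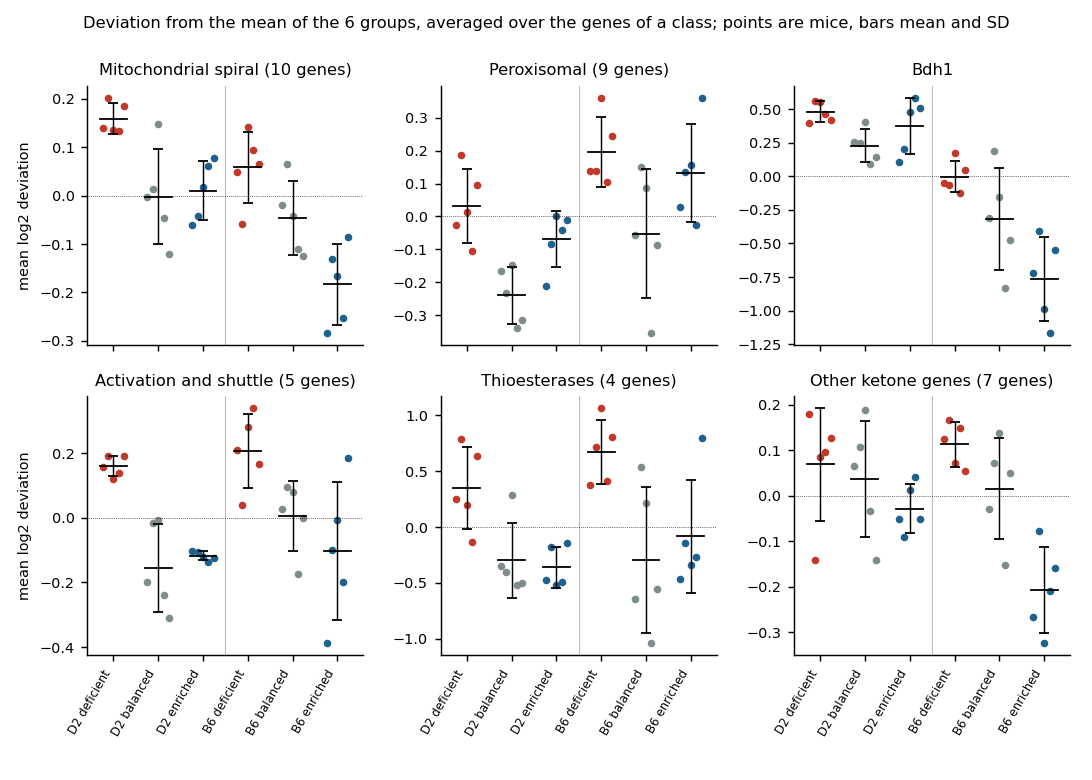
Mean log2 deviation of each mouse (points) from the mean of the 6 groups, averaged over the genes of a class, with the group mean and SD as bars. The deficient mean is the highest of its strain in every panel, the mean of the peroxisomal class is lower in D2 than in B6 on each diet, and Bdh1 is higher in D2.

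The comparison of D2 with B6 livers asked how the same genes differ between the strains. Averaged over the diets, 12 of 38 genes were higher and 10 were lower in D2, against 25.9% and 24.2% of all tested genes, so both shares were near the background. At an unadjusted p below 0.05, 23 of the 38 passed, a share similar to the 11566 of all 21071 tested genes. Ppara was 2.6-fold higher in D2, at 1.38 (SE 0.0557, adjusted p = 1.48e-17), and no D2 mouse overlapped a B6 mouse on the same diet. Several of its known targets were lower in D2. Pdk4 was at -2.53 (SE 0.151, adjusted p = 6.69e-14), a ratio of 0.173, with no overlap on any diet, and Pex11a at -0.78 (SE 0.0959, adjusted p = 9.58e-08), also without overlap. Slc25a20 was at -0.39 (adjusted p = 9.74e-07), Eci2 at -0.44 (adjusted p = 1.31e-05), Angptl4 at -0.47 (adjusted p = 0.00028) and Abcd2 at -0.73 (adjusted p = 0.00328), and Crat, Acot2, Decr2 and Abcd3 were lower too, with differences of -0.39 to -0.11.

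Other targets were higher in D2. Fgf21 was at 1.30 (SE 0.24, adjusted p = 4.84e-05), Vnn1 at 0.77 (adjusted p = 1.09e-05), Acaa1a at 0.31 (adjusted p = 1.7e-07), Acsl1 at 0.29 (adjusted p = 9.01e-08), Acaa1b at 0.26 (adjusted p = 0.0151, and 0.08 with slide as a block, where it was not called) and Fabp1 at 0.12 (adjusted p = 0.00628). Bdh1 was higher at 0.72 (SE 0.0829, adjusted p = 3.01e-08), and its other probe gave 1.99. In the spiral Echs1, Acads, Eci1 and Hadha were higher by 0.20 to 0.23, but the 2 further Hadha probes gave -0.04 and -0.34, so the direction of Hadha depends on the probe, and the mean of its probes was -0.05. By class, the spiral had 4 of 10 higher and 0 lower, and the peroxisomal genes had 2 of 9 higher and 5 lower. Of all tested genes 25.9% were higher and 24.2% lower, and Hadha is 1 of the 4 in the spiral. Acadl, Ehhadh and Cpt1a, at 0.00, 0.03 and 0.09, were not called. Sequence differences between the strains under the probes were not tested.

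**Figure D4:**
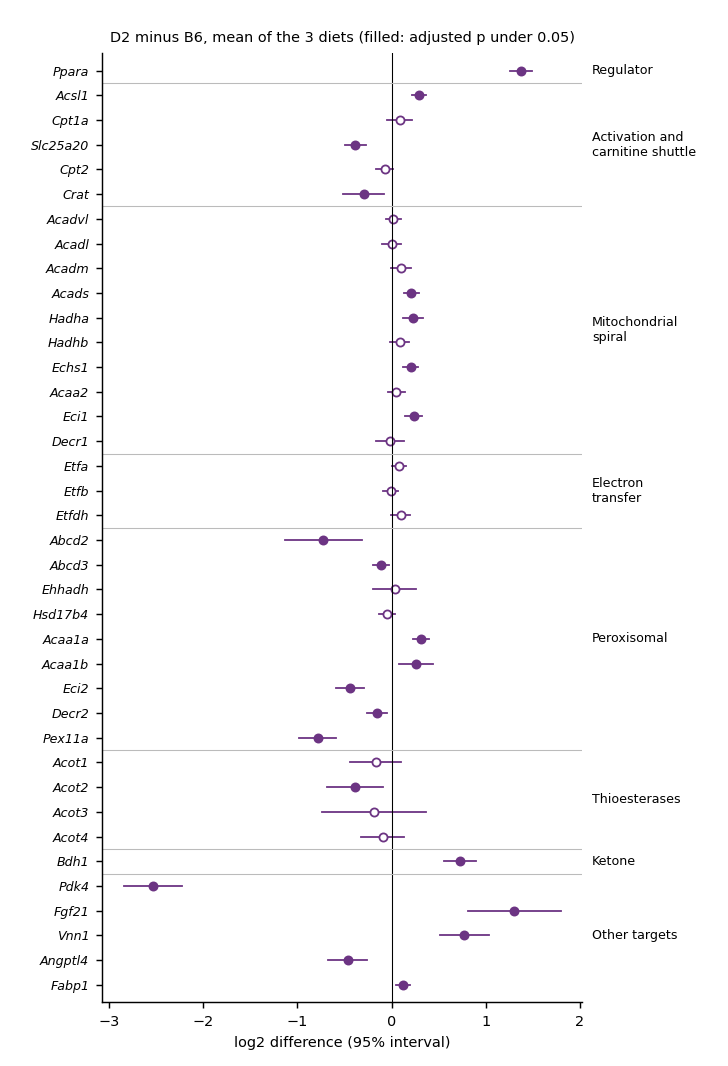
Log2 difference of D2 minus B6 livers with its 95% interval for the 38 genes by role, averaged over the 3 diets; filled circles are called. Ppara, Fgf21, Vnn1 and Bdh1 lie to the right and Pdk4, Pex11a and Abcd2 to the left.

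Many other genes differed between the strains. Of 17 clock genes 11 were higher and 5 lower in D2, with Dbp at 4.18, Per3 at 3.89, Clock at -0.79 and Arntl at -2.73, and the labels used here name no hour of sampling. All 11 Kupffer cell and macrophage markers were lower in D2, with summed levels of 35879 to 52247 over the D2 mice and 55705 to 117206 over the B6 mice, and 8 of 9 endothelial and 4 of 6 cholangiocyte markers were lower. Of 12 genes of the fasting response outside fatty acid oxidation 7 were lower and 0 higher, such as Igfbp1 at -1.79 (adjusted p = 1.89e-10). Of 22 receptors and cofactors 5 were higher and 8 lower, among them Lpin1, a coactivator of PPAR alpha, at -3.80 (adjusted p = 1.29e-13). Of the further ketone body genes 4 of 7 were higher, led by Acat1 at 0.56 (adjusted p = 3.88e-13), and 2 were lower. The part of the clock genes and of the other cell types in these differences was not tested. Within scan days 2 and 3 Ppara was at 1.41 on both days.

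Mice of 1 group also differed from each other across the set. In the enriched B6 group mouse 5 was the highest of its group for 24 of 37 genes (64.9%), against 19.0% of all genes, and mouse 1 was the lowest for 22 of 37 (59.5%), against 23.8%. In the balanced B6 group mouse 4 was the lowest for 22 of 37 genes (59.5%), against 27.4% of all genes. In the deficient B6 group mouse 3 was the highest for 22 of 38 (57.9%), against 21.2%, and in the deficient D2 group mouse 2 for 19 of 38, against 26.3% of all genes. Genes with a missing value in a group were left out of these counts. Fgf21 in enriched B6 livers is an example of the spread, with an SD of 1.37 around a mean of 11.84.

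**Figure D5:**
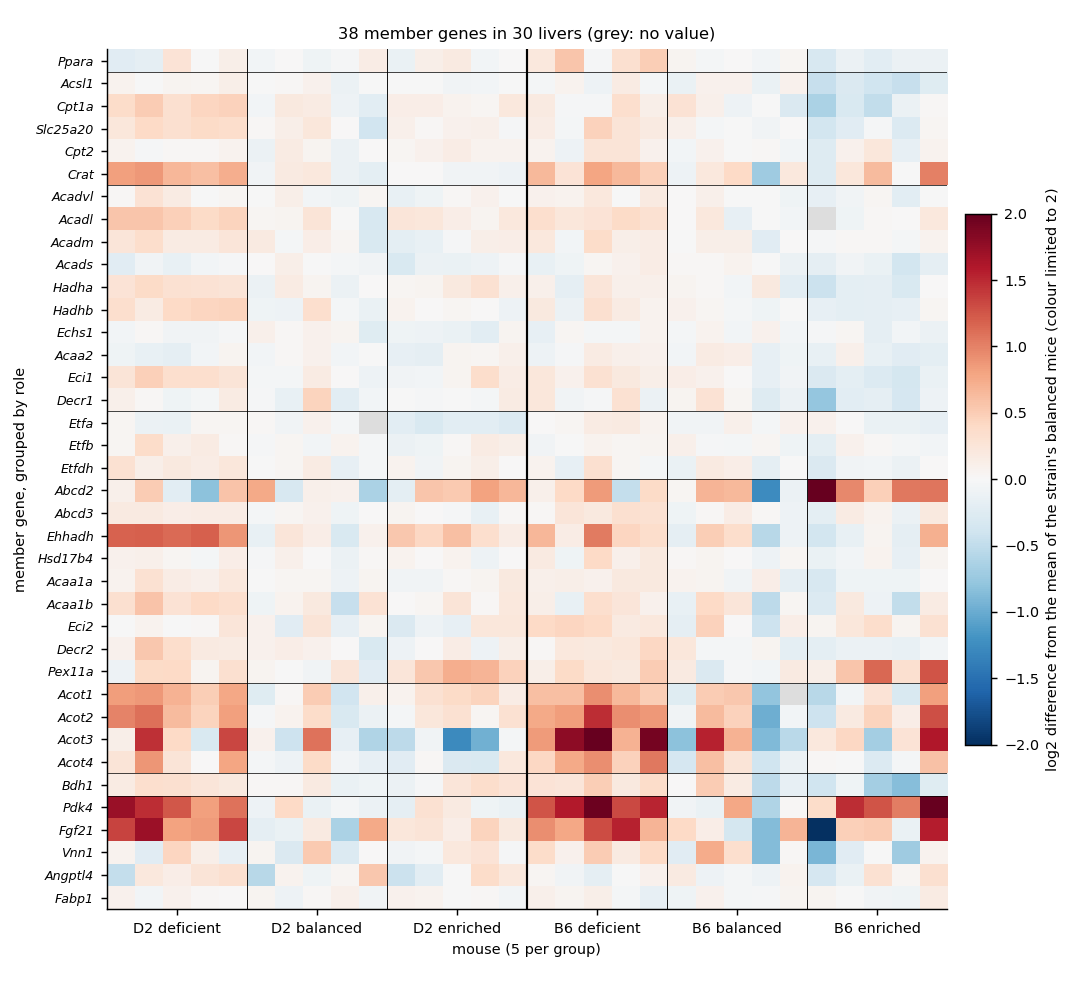
Log2 difference of each of the 30 mice (columns) from the mean of the balanced mice of its strain, for the 38 genes (rows) grouped by role; grey cells have no value and the colour is limited to 2. Red rows in the deficient groups are led by Pdk4, the thioesterases, Fgf21, Ehhadh and Crat, and single mice such as enriched B6 mouse 5 stand apart across many rows.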

How the data were processed

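Liver RNA of 30 mice was measured on 30 one-colour Agilent arrays, with 43379 gene spots and 1639 control spots each. The arrays were read with Feature Extraction, version 9.1.3.1 per the file headers and 9.5.1 per the labels. The deposited intensity is the processed signal, already background-subtracted by the authors' scanner software, and the deposited value table held the same numbers (largest difference 0.0).

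Control spots and spots marked as outliers were left out and spots of 1 probe were averaged to 41174 probes. Intensities were quantile-normalized, set to at least 13.9282 and taken to log2, so log2 values here derive from the deposited intensity. Probes well above background on at least 3 B6 and 3 D2 arrays, with at least 3 values per group, were kept (29986 probes). The brightest kept probe stood for its gene. In deficient minus balanced livers the dimmer probes of Acsl1, Cpt1a, Abcd3, Acaa1a, Etfdh, Acot4 and Bdh1 gave larger differences than the brightest. Those of Decr1 and Fgf21 gave slightly smaller ones, those of Hadha lay on both sides and that of Abcd2 had the other sign. Acaa2 and Fabp1, among the brightest genes of the set, had 1 probe each. Whether bright probes understate differences was not tested. Names came from RefSeq accessions for 22951 probes, current symbols for 6659 and the array's own names for 11564. Promoter sequences are from RefSeq.

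One limma 3.58.1 fit (R 4.3.3; Python 3.11.15 elsewhere) of 6 group means over 30 arrays tested 21071 genes, with Benjamini-Hochberg adjustment at 0.05; it stands in place of the R/maanova test of the series text, which was not run. On simulated data for deficient against balanced livers over 21071 genes, the fit recovered 26% of changes of 0.25, 62% of 0.5, 90% of 1 and 100% of 2 (log2). In the simulation each size was given to 50 genes and no other gene was changed. The real comparison called 819 genes higher and 884 lower, which makes the adjusted threshold easier to pass. The simulated shares therefore do not carry over to it directly. Values in every mouse are given for 5 genes chosen by name (Ppara, Cpt1a, Pdk4, Bdh1 and Fgf21) and for the up to 3 with the smallest adjusted p in each averaged comparison and strain difference; other genes are named where they were called or to complete a class, and up to 4 of each other list by adjusted p. Genes and lists were chosen with earlier results of these data known. Alternatives covered normalization, background correction, probe filters, outlier spots, probe choice, slide (10) and scan day (3), an ordinary t statistic, the compared groups alone and each array left out. The number of arrays limits the precision.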

Additional observations from a re-analysis of the deposited data

Results flagged for a closer look

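Among 54 sets of mice, 9 genes in 6 groups, 2 held a mouse far from the others of its group, and chance gives about 1 in 20. Ehhadh in D2 deficient mouse 5 was 16.71, while the other 4 mice lay between 16.97 and 17.02. Pdk4 in D2 balanced mouse 2 was 9.07, while the other 4 lay between 8.55 and 8.64. Both mice were kept in every comparison of the report.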

How the results depend on the processing

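No paired analysis was possible because the labels give the mice no shared replicate numbers, and the numbers used here follow accession order. Of 3414 alternative values of the 76 called gene results, 3413 kept their direction and 3064 stayed called. The exception was Hadha in D2 against B6, -0.052 with the mean of all kept probes against 0.23 with the brightest. With each array left out in turn, 2131 of 2280 values stayed called and 0 reversed.

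Within scan days 2 and 3 some groups hold 1 mouse (on day 2 balanced and enriched B6 and enriched D2, on day 3 balanced D2), so these counts say little about stability. Shares of all genes called in the within-day and slide fits are not given beside the counts. The called genes of 38 within days 2 and 3 numbered 0 and 3 for deficient against balanced (15 over all days), 0 and 0 for enriched against balanced (2), 0 and 1 for deficient against enriched (23), 10 and 14 for D2 against B6 (22), 0 and 2 for deficient D2 (9), 0 and 0 for deficient B6 (2), and 0 and 1 for enriched B6 (3). With slide as a block they numbered 1 for enriched against balanced, 13 for deficient against enriched, 1 for deficient B6 and 6 for enriched B6. For enriched against balanced the methods' t-test, an ordinary t statistic, gave 4. Deficient B6 gave 1 with no filter on dim probes and 0 in a fit of the compared groups alone. Deficient D2 gave 4 with 75th percentile scaling, 3 with no normalization and 4 with the compared groups alone. Enriched B6 gave 5 with cyclic loess, 6 with normexp, 6 with probes well above background on all 30 arrays and 0 with the compared groups alone. The strain difference of the enrichment effect gave 1 in place of 0 with cyclic loess, no normalization, no filter, probes above background on all 30 arrays, the mean of all probes and the t-test. The causes were not tested.

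With 1 array left out, the counts ran from 12 to 17 for deficient against balanced, 2 to 4 for enriched against balanced, 18 to 23 for deficient against enriched and 20 to 23 for D2 against B6. They ran from 5 to 12 for deficient D2 (5 without D2 balanced mouse 5 or D2 deficient mouse 1), 1 to 5 for deficient B6, 3 to 5 for enriched B6 (5 without B6 balanced mouse 4 or D2 balanced mouse 5) and 0 to 1 for the strain difference of the enrichment effect. The 4 came without B6 enriched mouse 1. The deficient B6 count was 5 without B6 balanced mouse 2, 4 without D2 balanced mouse 3, and 1 without B6 balanced mouse 1, 4 or 5, B6 deficient mouse 2, 4 or 5 or D2 enriched mouse 2 or 3. The strain difference gave 1 without B6 balanced mouse 1, 3 or 4 or B6 enriched mouse 1 or 5.

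Without normalization the median of all genes moved by -0.16 for D2 against B6, -0.15 for enriched D2, -0.19 for the strain difference of the enrichment effect and 0.11 for deficient against enriched. The share of called genes that were higher was then 69.5% for deficient against balanced (48.1% normalized), 24.8% for enriched against balanced (54.6%), 28.6% for D2 against B6 (51.7%) and 85.1% for deficient against enriched (47%).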
